A study of Equus caballus with 32 samples.

Results

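The change between rest and training was examined in the airway cells of the 3 racehorses whose tracheal wash held more neutrophils than the accepted limit during training (High N; horses 2, 3 and 10). Each horse gave 1 library in training (T1) and 1 at rest (T0), so the comparison rests on 6 of the 32 libraries of the series and 3 of its 16 horses. Genes were kept where their mean log2 value over those 6 libraries was at least 3, which left 14692 of 21357 listed genes, and the members described here are the genes whose T1 minus T0 change had the same sign in all 3 pairs: 3457 genes, or 23.5% of those tested. The rule used these changes themselves, so that count is a description and not a finding.

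All animals were adult male Thoroughbreds kept in 1 yard under 1 trainer and none had clinical respiratory disease. T1 samples were taken about 2.5 months into an intense training programme and T0 samples after about 2 months at rest between racing seasons. High N was assigned from cytology at T1 alone, so the neutrophil gene levels at T1 are tied to the way the horses were chosen. Horses 2 and 3 also had haemosiderophages, the iron-laden macrophages that mark exercise-induced pulmonary haemorrhage (EIPH), whereas horse 10 had none. The other 13 horses, of which 9 were EIPH-affected, were sampled at the same stages. No group was kept untrained, so training, housing and the passing of time cannot be told apart. The study filtered each wash and pelleted its cells without sorting them by type, so every library mixed airway leukocytes with shed epithelium. In such bulk samples fewer cells of a type and less RNA per cell cannot be told apart.

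Tracheal wash cells are mostly alveolar and airway macrophages, with lymphocytes, neutrophils and epithelial cells in varying amounts. Neutrophils enter the airway lumen along chemokine gradients, carry preformed granule proteins and rely on surface receptors such as CSF3R and TREM1 for survival and activation. An excess of them is a common finding in racehorses in training. The paper uses the term mild to moderate equine asthma for such inflammation when poor performance or chronic coughing comes with it. It considered the form in these horses subclinical. Cytology leaves epithelial cells out of its denominator, whereas RNA sequencing of the pelleted wash cells does not.

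Values are on a log2 scale as the authors deposited them, so a difference of 1 is about a 2-fold difference at high levels. The scale narrows at low expression, where a difference of 1 cannot be read that way. The values are not counts, so the sequencing depth behind each is unknown and no counting interval can be given. Macrophage transcripts were abundant in all 6 libraries, with CD163 at 17.21, 17.53 and 17.25 at T1 and 17.62, 16.60 and 18.01 at T0 in horses 2, 3 and 10. The ciliated marker FOXJ1 was also well expressed, at 12.42, 10.45 and 12.29 at T1 and 10.82, 13.19 and 11.85 at T0. Both the macrophage and the ciliated epithelial markers of a tracheal wash were thus present. The neutrophil granule genes MPO, ELANE and PRTN3 and the receptors CXCR1, FPR1 and FPR2 were not analysed here, since no tested gene carried those names.

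Levels of 3 genes, TREM1, CSF3R and SAMHD1, were read first. The study named TREM1 and CSF3R as differing between High N and other horses at T1 in these same libraries. Their T1 levels are therefore no independent check of the neutrophil label. TREM1, a receptor that amplifies inflammatory signalling in neutrophils and monocytes, was 14.36, 14.53 and 14.13 at T1 in horses 2, 3 and 10, against 13.49, 13.05 and 13.72 at T0. All 3 T1 values lay above all 3 T0 values and also above the highest T1 value of the other 13 horses, which was 13.49. The mean change of TREM1 over the 3 pairs was 0.92 ± 0.37, which did not pass the test over all genes (limma, unadjusted p = 0.023, adjusted p = 0.648). The SE given with a mean change is that of the limma fit, which pools the spread over all 16 horses and is not the spread of the 3 pairs.

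CSF3R, the receptor for granulocyte colony-stimulating factor, was 12.64, 13.15 and 12.67 at T1, against 11.50, 11.78 and 12.75 at T0. Horses 2 and 3 were higher in training, while horse 10 had its CSF3R level at rest already and differed by -0.08 between the times. At T0 the other 13 horses ran from 9.66 to 12.04 with a median of 10.31, so all 3 High N horses sat above that median at rest. SAMHD1, a dNTP hydrolase that restricts viruses and is induced by interferon, did not follow the neutrophil pattern. It was 11.64, 10.18 and 12.08 at T1, against 9.98, 10.49 and 9.99 at T0, thus higher in training in horses 2 and 10 and lower in horse 3. The 3 genes therefore did not move as a set, and only TREM1 was higher at T1 in each pair.

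**Figure D1:**
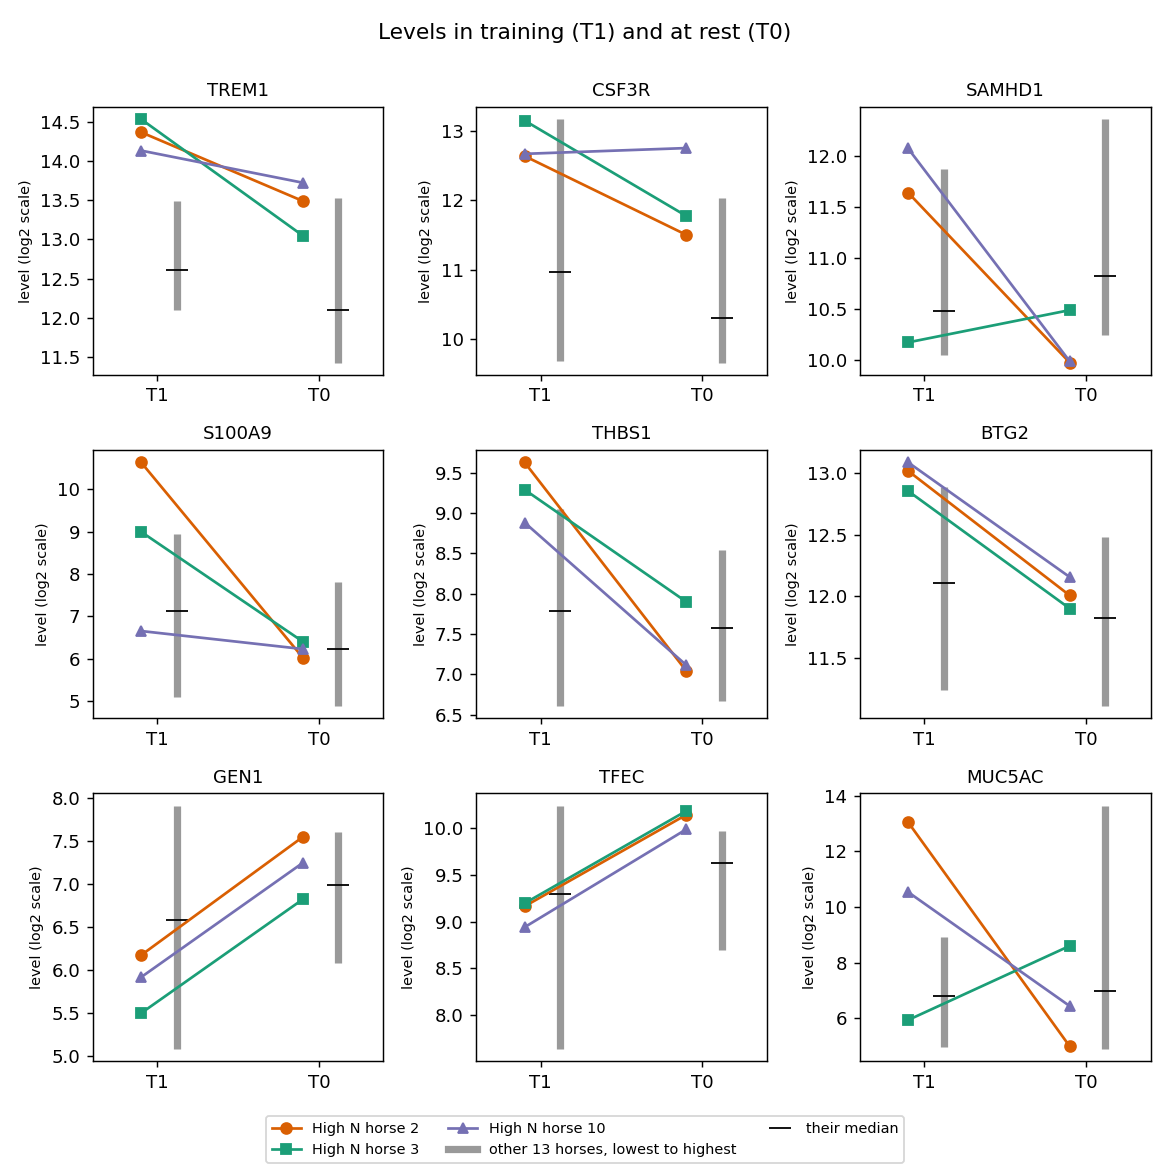
Level (log2 scale) of 9 genes in training (T1, left) and at rest (T0, right). Coloured lines join the 2 libraries of each High N horse, grey bars span the lowest to highest of the other 13 horses and black ticks give their median. TREM1, S100A9, THBS1 and BTG2 were higher at T1 in each of the 3 pairs, GEN1 and TFEC were lower in each, and MUC5AC and SAMHD1 went one way in horses 2 and 10 and the other way in horse 3.

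The question of the comparison was which genes changed with training in these 3 horses. No gene passed the test (limma with the horse as a block, adjusted p under 0.05; 0 of 14692, 0% called), although 1108 genes had an unadjusted p under 0.05, of which 425 (2.89% of those tested) were higher and 683 (4.65%) lower at T1. The smallest adjusted p was 0.648. By direction alone, 1470 genes (10% of those tested) were higher and 1987 (13.5%) were lower at T1 in 3 of 3 pairs. A change of at least 0.5 in each pair was met by 81 higher and 143 lower genes, and a change of at least 1 in each pair by 6 higher and 8 lower genes. For 818 genes (5.57%) the T1 values lay wholly above the T0 values, and for 1321 genes (8.99%) wholly below them.

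The 3 pairs differed widely from each other. The changes of horses 2 and 3 ran in opposite directions over the 14692 genes (Pearson r = -0.612 across genes), those of horses 2 and 10 ran together (r = 0.401), and those of horses 3 and 10 were close to unrelated (r = -0.0852). These correlations are descriptions: the genes are not independent and share their libraries. Changes of at least 1 in either direction were seen in 22.3% of genes in horse 2, 34.6% in horse 3 and 11.2% in horse 10, against 1.42% to 30.3% in the other 13 horses.

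Epithelial genes were among those that differed most between the pairs. The mean of the 26 ciliated epithelium genes changed by 1.80 in horse 2, by -3.05 in horse 3 and by -0.09 in horse 10, and no gene of that list moved the same way in all 3 pairs. DNAH5, a heavy chain of the ciliary outer dynein arm, was 11.29, 9.55 and 10.49 at T1, against 9.70, 13.58 and 11.13 at T0. Horse 3 thus had the most ciliated wash of the 3 at rest and the least in training. In the other 13 horses the ciliated list changed by -2.32 to 1.30, so horses 2 and 3 lay beyond both ends of that range.

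Mucin and squamous genes set horses 2 and 10 apart from horse 3. The 12 secretory genes changed on average by 3.97 in horse 2, -1.81 in horse 3 and 1.83 in horse 10. MUC5AC, the gel-forming mucin of goblet cells, was 13.04, 5.94 and 10.54 at T1, against 5.0, 8.60 and 6.45 at T0. That is the largest single change of horse 2 among named genes with a mean level of at least 5, and the second largest of horse 10. MUC1, a membrane mucin, had the same layout, with 11.64, 8.50 and 11.41 at T1 and 7.09, 10.52 and 8.37 at T0. Neither passed the test (limma, adjusted p = 0.674 for MUC5AC and 0.666 for MUC1).

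Of the secretory genes only DEFB4B, a beta-defensin of surface epithelium, was higher at T1 in 3 of 3 pairs. Its level was 8.42, 4.22 and 3.59 at T1, against 2.62, 2.83 and 2.29 at T0, and the T1 and T0 values did not overlap. Among the 12 basal and squamous genes, 3 were higher and 0 lower in 3 of 3 pairs. The keratin KRT78 was 13.97, 8.05 and 9.01 at T1 and 7.21, 7.80 and 8.03 at T0, so its size rested on horse 2. TGM3, a transglutaminase that crosslinks proteins in squamous cells, was 12.47, 11.88 and 11.54 at T1 and 10.34, 10.04 and 11.50 at T0.

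**Figure D2:**
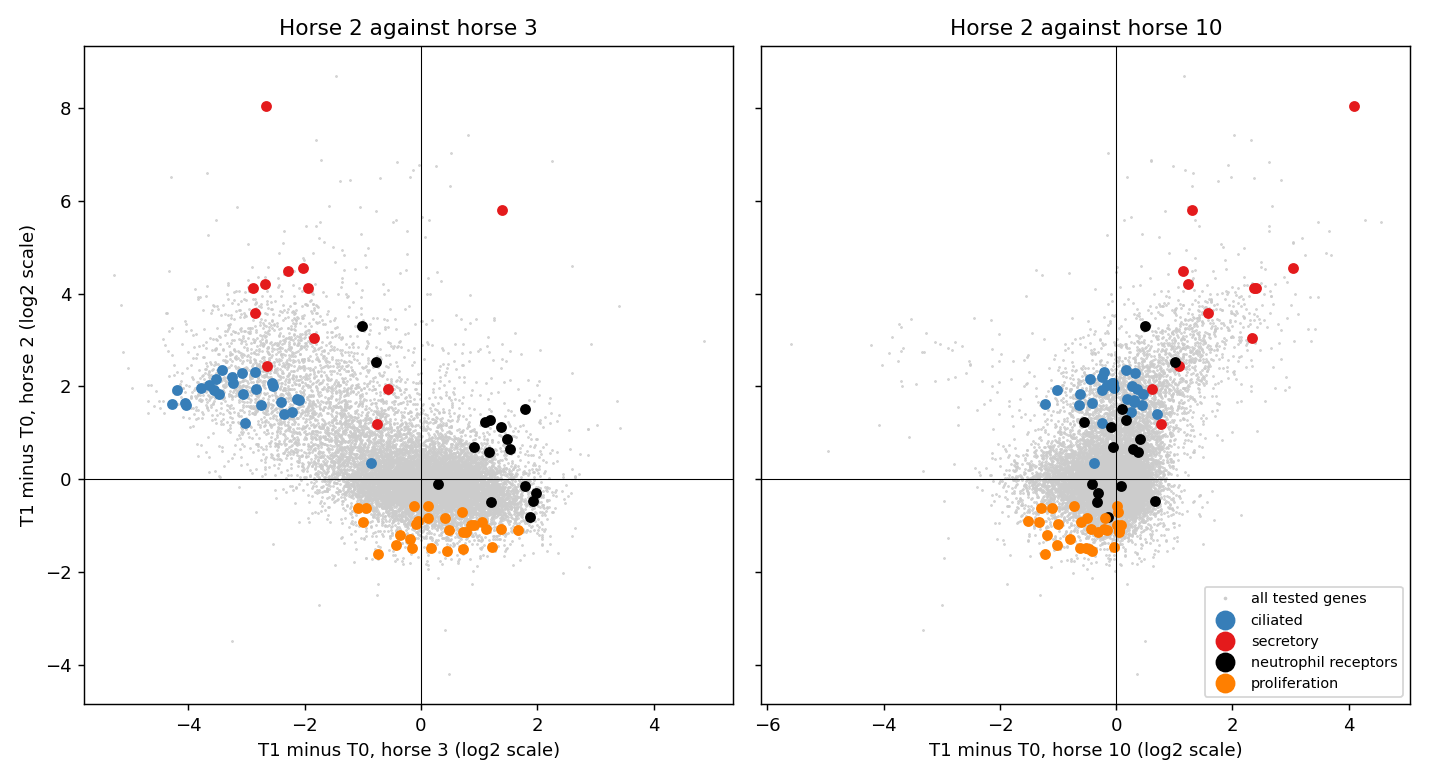
T1 minus T0 change of each tested gene (grey, log2 scale) in horse 2 against horse 3 (left) and against horse 10 (right), with 4 gene lists in colour. Ciliated genes were higher in horse 2 and lower in horse 3, secretory genes were higher in horses 2 and 10, and proliferation genes were lower in horse 2.

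Because the ciliated part moved in opposite directions, the fit was repeated with the mean level of the ciliated genes in each library as a covariate. In that fit 50 genes passed in the High N horses (limma, adjusted p under 0.05; 0.34% of 14692), 47 of them higher and 3 lower at T1. The same fit called 436 genes (2.97%) in the other 13 horses and 0 (0%) for the difference between the groups, where 853 genes had an unadjusted p under 0.05 and the smallest adjusted p was 0.097. The calls are therefore not shown to be particular to the High N horses. Of the 50, 42 were higher in horses 2 and 10 and lower in horse 3, and 8 moved the same way in 3 of 3 pairs. Leaders were ADGRF1, an adhesion receptor (adjusted change 2.70 ± 0.40, SE; adjusted p = 0.028), and LYPD2, a small Ly6-family surface protein (3.44 ± 0.54; adjusted p = 0.028). SAMHD1 and DEFB4B also passed, at 1.28 and 3.05 (limma, adjusted p = 0.034 for both). DEFB4B had a High N mean of 2.58 at T0, under the filter of 3. It entered the test only through its T1 values, highest in horse 2, so its call is no support for a change.

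The 3 lower genes were SERPINE2, an inhibitor of thrombin and urokinase (-1.10), CCNE2, the cyclin of the G1 to S step (-1.08), and MMS22L, a factor of replication fork repair (-0.94). In the same fit CCNE2 and MMS22L were also lower in the other 13 horses (adjusted p = 0.033 for both). The calls in the High N horses rested on the pairs of horses 2 and 10: without either pair 0 genes passed, and without the pair of horse 3 the count was 60, of which 28 were among the 50. ADGRF1, LYPD2, SERPINE2 and MMS22L are named after their values were seen.

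The list of neutrophil receptors and adhesion molecules, which also held the sulfotransferase CHST15, had positive means in all 3 pairs, the smallest in horse 10. The study named its members TREM1 and IL18RAP, and SLPI and PLEK described below, as differing in High N horses at T1 in these libraries. It named MUC5AC and TGM3, described above, and DDIT3, ISG20, CRISPLD2 and IDO1, described below, in that comparison too. Their values here are not independent of that choice. Of the 16 genes tested on the list, 5 were higher and 0 lower in 3 of 3 pairs, beside 10% and 13.5% of all genes. The counts of each further list stand against these shares as well. The median change of the neutrophil list was 0.71, against 0.01 over all tested genes and 0.08 for the same list in the other 13 horses. Without horse 3 it was 0.40. The list mean changed by 0.72 in horse 2, 1.11 in horse 3 and 0.11 in horse 10. It stood at 10.70, 10.93 and 10.32 at T1, above the 9.23 to 9.94 of the other horses at T1. At T0 it was 9.99, 9.81 and 10.21, where the other horses ran from 9.05 to 10.

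OXER1, a receptor for eosinophil- and neutrophil-attracting eicosanoids, was 4.46, 5.11 and 4.09 at T1, against 3.87, 3.94 and 3.72 at T0. All 3 T1 values lay above the T0 values. CHST15, a sulfotransferase that decorates chondroitin chains, was 9.57, 9.67 and 8.96 at T1 and 8.06, 7.88 and 8.85 at T0. IL18RAP, a subunit of the interleukin-18 receptor, was 9.70, 9.98 and 8.91 at T1 and 8.42, 8.80 and 8.74 at T0. For both, horse 10 differed least between the times and had the lowest T1 level of the 3.

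Granule and oxidase genes were mixed. Of 17 tested, 4 were higher and 1 lower in 3 of 3 pairs, with a median change of 0.56, against 0.14 for the list in the other horses. Without horse 3 that median was 0.12. MMP9, the gelatinase stored in neutrophil granules, was 9.73, 11.29 and 9.39 at T1, against 8.66, 8.42 and 8.76 at T0 (mean change 1.52 ± 0.56, SE of the fit; 0.85 without horse 3). SLPI, a protease inhibitor that shields the airway from neutrophil elastase, was 10.66, 9.75 and 10.59 at T1 and 9.50, 9.32 and 9.55 at T0. Both genes had T1 values wholly above T0.

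PLEK, a protein kinase C substrate of leukocytes and platelets, was 15.86, 16.06 and 15.92 at T1 and 15.47, 15.58 and 14.97 at T0, and the other 13 horses averaged a change of -0.10. The one lower gene was BPI, a bactericidal granule protein, at 9.55, 9.43 and 8.69 at T1 and 9.59, 10.09 and 9.95 at T0. None of these passed the test (limma, adjusted p = 0.648 for MMP9, SLPI, PLEK and BPI).

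Calcium-binding S100 proteins and acute phase genes differed far more in horse 2 than in horses 3 and 10. Of 8 tested, 3 were higher and 0 lower in 3 of 3 pairs. S100A9, a subunit of calprotectin that neutrophils, monocytes and inflamed squamous cells make, was 10.63, 9.0 and 6.66 at T1, against 6.03, 6.41 and 6.23 at T0. The horse 10 difference was only 0.42, while horse 2 differed by 4.60. S100A12 was 13.16, 8.99 and 8.90 at T1 and 6.84, 8.50 and 7.59 at T0, so horse 2 again held most of the change, and in that horse the squamous list differed by 3.49 as well. Whether squamous cells took part in these S100 values was not tested. SAA1, the main equine acute phase reactant, was 8.01, 7.38 and 8.39 at T1 and 7.64, 6.63 and 7.62 at T0.

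Cytokine and early response genes split. Of 29 tested, 8 were higher and 4 lower in 3 of 3 pairs, with a median change of 0.07, which turned to -0.10 without horse 3. DUSP2, a phosphatase that limits MAP kinases in activated leukocytes, was 12.07, 12.16 and 11.36 at T1 and 11.55, 10.24 and 10.47 at T0. IER3, an early response gene, was 13.74, 13.89 and 13.39 at T1 and 13.37, 12.67 and 12.92 at T0. Its T1 values were all above T0, whereas in the other horses IER3 averaged -0.07.

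TNF, the archetypal macrophage cytokine, went the other way, with 11.21, 12.47 and 12.13 at T1 and 13.05, 12.78 and 12.31 at T0. Its horse 2 difference was -1.84 and those of horses 3 and 10 were -0.31 and -0.18. TNF was lower in 12 of the other 13 horses too. BIRC3, an inhibitor of cell death downstream of TNF, was 13.92, 14.32 and 14.27 at T1 and 15.07, 15.11 and 14.52 at T0. IL1A, an alarmin of the interleukin-1 family, was lower in horses 2 and 3 and close to level in horse 10, with a mean change of -0.32.

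Of 15 chemokines, 2 were higher and 1 lower in 3 of 3 pairs, close to the 10% and 13.5% of all genes. CCL17, a ligand that draws CCR4-bearing T cells, was 6.58, 6.75 and 5.92 at T1, against 5.22, 5.30 and 5.63 at T0. CCL5, a ligand of lymphocytes and monocytes, was 10.66, 11.68 and 10.38 at T1 and 10.13, 10.59 and 10.04 at T0. CCL2, the monocyte chemoattractant, did not move together, since it was higher in horses 3 and 10 and lower in horse 2 (10.89, 11.48 and 11.54 at T1; 11.35, 9.89 and 10.20 at T0).

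Leukocyte lineage lists moved by horse and not as a group. The 23 macrophage entries changed on average by -0.48 in horse 2, 1.37 in horse 3 and -0.18 in horse 10, and only the 2 entries of CD14, the lipopolysaccharide co-receptor, were higher in 3 of 3 pairs. These entries held near-identical values and count as 1 gene. CD14 was 13.21, 14.22 and 13.65 at T1 and 13.16, 11.58 and 13.49 at T0 in the first of them. The horse 3 wash, which was the most ciliated at T0, was also the lowest in macrophage genes at that time, with a list mean of 12.62 against 13.82 in horse 2 and 13.87 in horse 10.

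B and plasma cell genes ran in opposite directions, with a list mean change of 1.72 in horse 2, 0.52 in horse 3 and -1.96 in horse 10. CD79A, a chain of the B cell receptor, was 8.34, 7.47 and 5.37 at T1, against 5.42, 6.08 and 8.40 at T0. The other 13 horses ranged from -0.82 to 1.12 for that list, so horses 2 and 10 lay outside them on opposite sides, and 0 of its 9 genes moved the same way in 3 of 3 pairs. Of 21 T cell genes, 1 was higher and 5 were lower in 3 of 3 pairs. CD69, an early activation marker of lymphocytes, was 6.82, 8.0 and 6.09 at T1 and 7.38, 8.90 and 7.73 at T0. IL7R, the interleukin-7 receptor chain, appeared under 2 identifiers with mean changes of -0.39 and -0.23, and in both it was higher at T1 in horse 10 alone.

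Natural killer and cytotoxic genes counted 2 higher and 1 lower of 12, dendritic cell genes 1 higher and 0 lower of 10, and eosinophil and mast cell genes 0 higher and 1 lower of 6. Erythroid genes, which would mark red blood cells in the wash, counted 0 higher and 1 lower of 4. The lower one was ALAS2, the erythroid enzyme of heme synthesis, at 8.43, 8.34 and 7.69 at T1 and 8.46, 9.08 and 8.92 at T0.

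**Figure D3:**
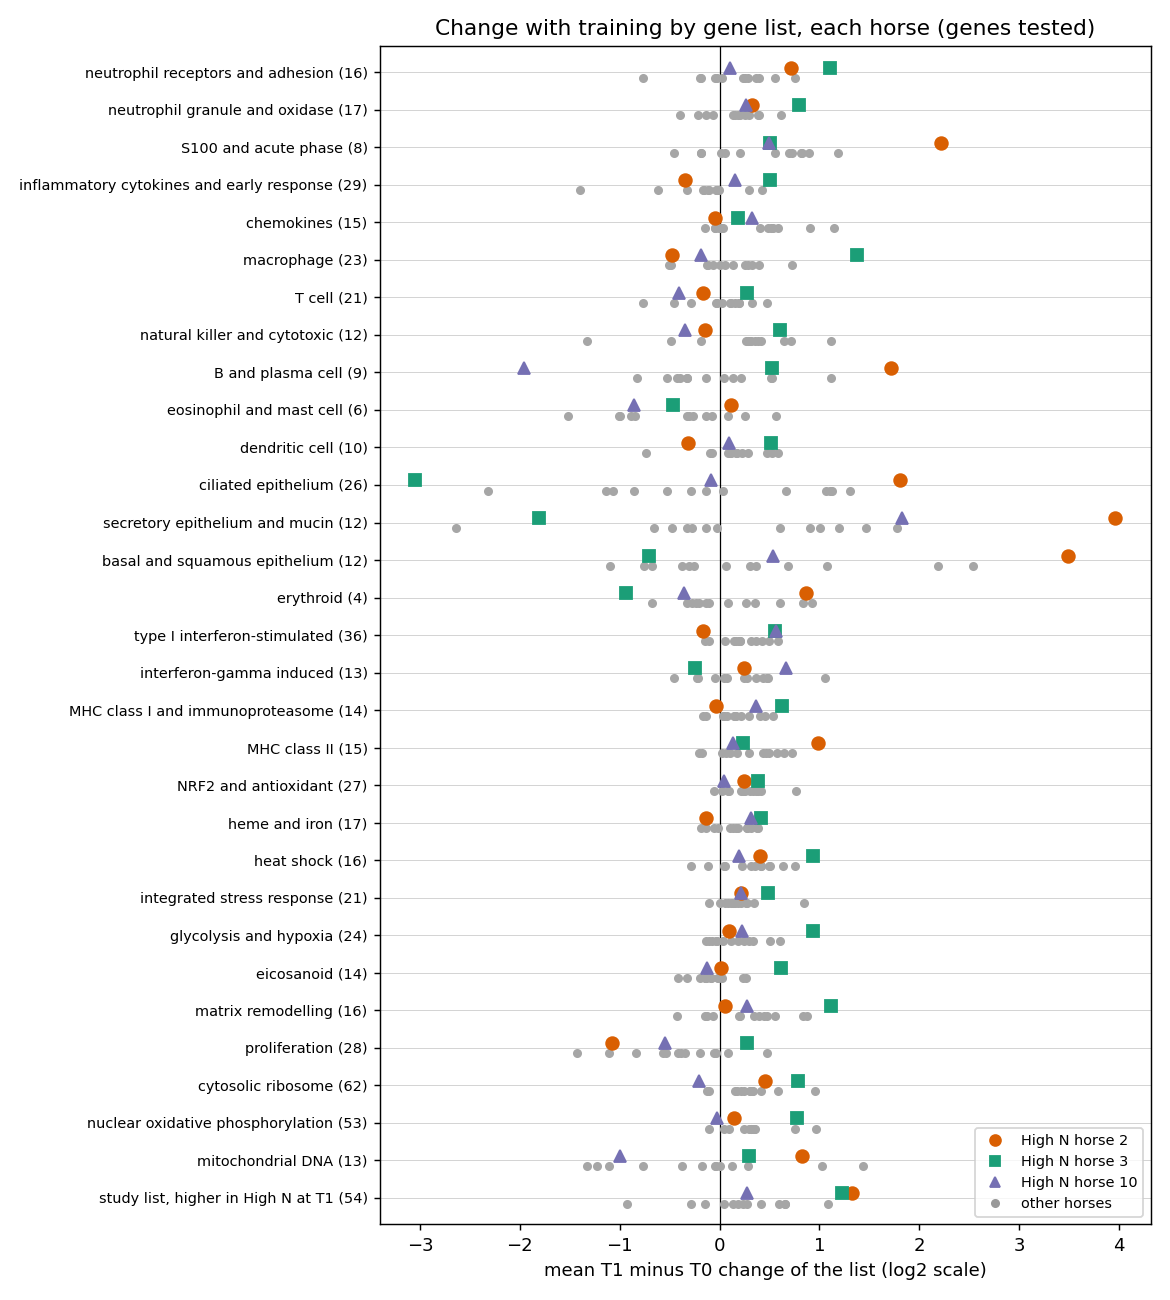
Mean T1 minus T0 change (log2 scale) of each gene list in each horse, with the number of genes tested in brackets. Coloured symbols are the 3 High N horses and grey dots the other 13. The ciliated, secretory, squamous and B cell lists spread the High N horses over both sides of 0. The neutrophil, S100 and integrated stress response lists were among those above 0 in all 3. So were the MHC class II, NRF2, heat shock, glycolysis, matrix remodelling and study lists. Among the other 13 horses, the neutrophil receptor, S100 and integrated stress response lists were above 0 in 8, 10 and 12.

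Of 36 type I interferon-stimulated genes, 7 were higher and 2 lower in 3 of 3 pairs, beside 10% and 13.5% of all genes, and none passed the test. The median change was 0.36, against 0.24 in the other horses, and was 0.13 without horse 3. The list mean changed by -0.16 in horse 2 and by 0.56 in both horses 3 and 10. ISG15, a ubiquitin-like antiviral protein, was 13.27, 13.26 and 13.24 at T1, against 12.80, 12.05 and 11.97 at T0. The T1 levels of the 3 horses were nearly the same while the T0 levels were not. IRF9, a subunit of the interferon-activated transcription complex, was 12.52, 12.66 and 12.60 at T1 and 12.23, 11.83 and 12.12 at T0. TRIM21, a cytosolic antibody receptor, was 10.49, 10.75 and 10.56 at T1 and 10.21, 10.14 and 9.97 at T0.

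Both IRF9 and TRIM21 were higher in 12 of the other 13 horses. Of 13 interferon-gamma induced genes, 2 were higher and 0 lower, a count of higher genes close to the 10% of all genes. WARS was 1 of them (12.51, 13.47 and 12.92 at T1; 12.41, 12.81 and 12.23 at T0). IDO1, the tryptophan-degrading enzyme, was higher in horses 2 and 10 and lower in horse 3.

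MHC class I and immunoproteasome genes counted 8 higher and 0 lower of 14, with a median change of 0.42, against 0.08 in the other horses, and of 0.25 without horse 3. The list mean changed by -0.04 in horse 2, 0.62 in horse 3 and 0.36 in horse 10, and it was higher at T1 in 11 of the other 13 horses. Gene by gene, the median difference of High N minus other horses was 0.11. PSMB8, a catalytic subunit of the immunoproteasome, was 13.56, 13.49 and 13.27 at T1, against 13.29, 12.29 and 12.83 at T0. PSME1, its activator, was 13.05, 13.26 and 13.06 at T1 and 12.92, 12.33 and 12.74 at T0. Horse 3 showed the largest difference and horse 2 the smallest for both genes. MHC class II genes counted 5 higher and 0 lower of 15 entries, and HLA-DMA, a peptide-loading chaperone, was 12.65, 12.36 and 11.85 at T1 and 11.49, 12.07 and 11.56 at T0. Class II entries with the same name can share reads, so their single values are uncertain.

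A part of the stress response genes was higher at T1 in each pair, with the largest heat shock differences in horse 3. Of 16 heat shock genes, 6 were higher and 1 lower in 3 of 3 pairs, with a median change of 0.33, and of 0.09 without horse 3. HSPA6, an inducible HSP70, was 15.75, 16.28 and 15.38 at T1, against 15.04, 14.41 and 14.96 at T0. HSPA1A, another inducible HSP70, was 16.95, 17.62 and 16.54 at T1 and 16.26, 15.52 and 16.45 at T0. DNAJB1, their co-chaperone, was 14.60, 15.53 and 14.66 at T1 and 14.11, 13.50 and 14.19 at T0, and BAG3, a nucleotide exchange factor, was 12.63, 13.29 and 12.22 at T1 and 11.87, 11.14 and 11.83 at T0. HSPA6 and DNAJB1 were higher at T1 in all 13 other horses, so they were higher in each of the 16 horses.

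The integrated stress response, which slows translation under amino acid or folding stress, counted 5 higher and 1 lower of 21 genes. Its median change was 0.29, and 0.08 without horse 3. DDIT3, a transcription factor of that pathway also called CHOP, was 11.35, 11.70 and 12.12 at T1, against 10.57, 10.94 and 10.96 at T0. SESN2, a leucine sensor, was 10.65, 10.78 and 10.04 at T1 and 9.61, 8.96 and 9.87 at T0. PPP1R15A, the phosphatase subunit that ends the response, was 13.77, 14.23 and 14.17 at T1 and 13.35, 13.28 and 13.53 at T0. The T1 values lay above the T0 values for all of these.

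Of 27 antioxidant genes under NRF2, 4 were higher and 3 lower, close to the 10% and 13.5% of all genes. The median change was 0.19 and turned to -0.015 without horse 3. SRXN1, which repairs oxidised peroxiredoxins, was 13.44, 13.97 and 13.56 at T1 and 13.15, 12.43 and 13.38 at T0. Heme and iron genes counted 2 higher and 0 lower of 17, again near the 10% of all genes for the higher ones. Their median change of 0.30 turned to -0.11 without horse 3. HMOX1, the heme-degrading enzyme of haemosiderophages, was 16.12, 17.09 and 16.36 at T1 and 16.48, 14.56 and 16.12 at T0, and hence lower in horse 2. STEAP4, an iron and copper reductase induced by inflammation, was 9.36, 9.67 and 9.15 at T1 and 7.73, 8.97 and 8.41 at T0.

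Glycolysis and hypoxia genes counted 6 higher and 0 lower of 24, with a median change of 0.37, and of 0.04 without horse 3. ADM, a vasodilator peptide induced by low oxygen, was 10.95, 10.71 and 9.88 at T1, against 9.70, 8.69 and 9.35 at T0 (mean change 1.27 ± 0.31, SE of the fit). Matrix remodelling genes counted 5 higher and 0 lower of 16, among them MMP9 and PLAU, the urokinase protease (10.71, 11.88 and 11.96 at T1; 10.71, 10.80 and 11.17 at T0). The matrix list had a median change of 0.57, and of 0.15 without horse 3. PCOLCE2, an enhancer of collagen processing, was 4.51, 5.91 and 8.80 at T1 and 4.42, 4.69 and 7.56 at T0, so horse 10 stood far above the others at both times. In horse 2 PLAU and PCOLCE2 were higher at T1 by only 0.005 and 0.09. The median of all tested genes was itself 0.22 higher in the T1 library of that horse. Eicosanoid genes counted 1 higher and 2 lower of 14. The higher one was HPGD, which inactivates prostaglandins (4.83, 2.60 and 3.26 at T1, and 2.38, 2.27 and 2.74 at T0). Its High N mean was 2.46 at T0, under the filter of 3, so it passed only through its T1 values.

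Ribosomal and respiratory chain genes were higher at T1 by small amounts in a part of their members. Of 62 cytosolic ribosomal protein genes, 22 were higher and 0 lower in 3 of 3 pairs, with a median change of 0.37, against 0.31 in the other horses, and of 0.12 without horse 3. RPS9 was 15.57, 15.51 and 14.83 at T1, against 14.60, 14.34 and 14.48 at T0, and RPLP0 was 16.00, 16.01 and 15.55 at T1, against 15.40, 15.15 and 15.12 at T0. In horse 10 the list mean differed by -0.20, opposite to the 0.46 of horse 2 and the 0.79 of horse 3. Of 53 nuclear genes of oxidative phosphorylation, 21 were higher and 0 lower, as in NDUFB11 of complex I (10.83, 10.86 and 10.54 at T1; 10.46, 9.75 and 10.18 at T0). Their median change was 0.33, and 0.07 without horse 3. SDHA, a complex II subunit often used as a reference in qPCR, changed by 0.15 ± 0.13 (SE of the fit).

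Transcripts of the mitochondrial genome did not follow. None of the 13 moved the same way in 3 of 3 pairs, and the list mean changed by 0.83 in horse 2, 0.29 in horse 3 and -0.99 in horse 10. MT-CO3, a subunit of complex IV, was 18.43, 17.99 and 16.56 at T1 and 17.38, 17.27 and 17.32 at T0.

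Genes of cell division were lower at T1 in many members of their list. Of 28 genes on the proliferation list, 11 were lower and 0 higher in 3 of 3 pairs, beside 13.5% and 10% of all genes, and the median change was -0.42, against -0.30 in the other horses. The list mean changed by -1.08 in horse 2, 0.28 in horse 3 and -0.55 in horse 10, so the list as a whole was not lower in horse 3, and without horse 2 its median was 0.04. CENPE, a kinesin of the kinetochore, was 7.32, 7.60 and 7.85 at T1, against 8.93, 8.34 and 9.07 at T0. KIF15, a spindle kinesin, was 7.28, 6.84 and 7.30 at T1 and 8.50, 7.20 and 8.49 at T0.

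The 15 genes with a symbol and a mean level of at least 5 whose smallest pair change was largest were then described for each direction. On the lower side, GEN1, a resolvase of recombination junctions, was 6.17, 5.50 and 5.91 at T1, against 7.54, 6.82 and 7.24 at T0. Its pair changes were nearly equal, at -1.37, -1.32 and -1.33. POLQ, the polymerase of end joining, was 5.94, 5.15 and 6.19 at T1 and 7.44, 6.26 and 7.23 at T0. BRCA2, a protein of homologous recombination, was 6.66, 6.76 and 6.32 at T1 and 7.67, 7.82 and 7.62 at T0. CCNE2 was 6.96, 6.56 and 6.86 at T1 and 8.08, 7.50 and 7.85 at T0. All 4 genes had T1 values wholly below T0.

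CLSPN, an adaptor of the replication checkpoint, changed on average by -1.09 ± 0.34, SGO2, a protector of centromeric cohesin, by -1.08 ± 0.49, KNL1, a kinetochore scaffold, by -1.0 ± 0.50 and CEP295, a centriole protein, by -0.81 ± 0.36 (SE of the limma fit, pooled over all 16 horses). TFEC, a myeloid transcription factor of the MiT family, was 9.16, 9.20 and 8.94 at T1, against 10.15, 10.19 and 9.99 at T0. CACNB2, a calcium channel subunit, was 4.82, 4.86 and 4.72 at T1 and 5.75, 6.0 and 5.70 at T0. The 3 horses lay within a narrow band at each time for both. INPP4B, a phosphoinositide phosphatase, SSUH2, CCNT2, a cyclin of transcription elongation, and the zinc finger genes ZNF518A and ZBTB25 had mean changes of -1.19, -1.18, -0.91, -0.92 and -0.79.

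On the higher side, THBS1, thrombospondin 1, a matrix protein that activates TGF-beta, led the list. Its level was 9.63, 9.29 and 8.88 at T1, against 7.04, 7.90 and 7.11 at T0. The mean change was 1.91 ± 0.55 (SE of the fit, limma unadjusted p = 0.0029, adjusted p = 0.648). THBS1 was chosen by these same pair changes, so its p-value is no independent test. Horse 2 differed most, by 2.58. BTG2, an antiproliferative gene induced by p53, was 13.02, 12.85 and 13.09 at T1, against 12.01, 11.90 and 12.16 at T0, with pair changes of 1.01, 0.95 and 0.93. GADD45A, a stress-induced growth arrest gene, was 13.02, 13.04 and 12.81 at T1 and 12.20, 12.26 and 12.05 at T0. These growth arrest genes had the most even changes of the higher set, and DDIT3 was among the 15 as well.

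MEFV, which encodes the inflammasome sensor pyrin of neutrophils and monocytes, was 6.75, 6.35 and 6.22 at T1, against 5.35, 5.33 and 5.28 at T0. HIC1, a transcriptional repressor, was 7.77, 7.73 and 7.93 at T1 and 6.83, 6.78 and 6.73 at T0. CYP4F22, a fatty acid hydroxylase of barrier lipid synthesis, was 6.33, 5.09 and 6.33 at T1 and 4.25, 3.98 and 4.83 at T0. The T1 and T0 values did not overlap for any of these 3 genes.

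Mean changes of the remaining members of the 15 were 1.07 for ISG20, an interferon-induced exonuclease, 1.17 for DHRS9, a retinol dehydrogenase, 0.91 for PRR5, a subunit of mTORC2, 1.03 for CRISPLD2, a secreted protein that binds lipopolysaccharide, 1.20 for XYLB, a xylulose kinase, 1.03 for STEAP4, 1.07 for VCAN, the proteoglycan versican, and 0.79 for ADGRG3, an adhesion receptor of granulocytes. Just outside the 15 were CD7 on the higher side and CENPE on the lower side, with smallest pair changes of 0.68 and 0.74.

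**Figure D4:**
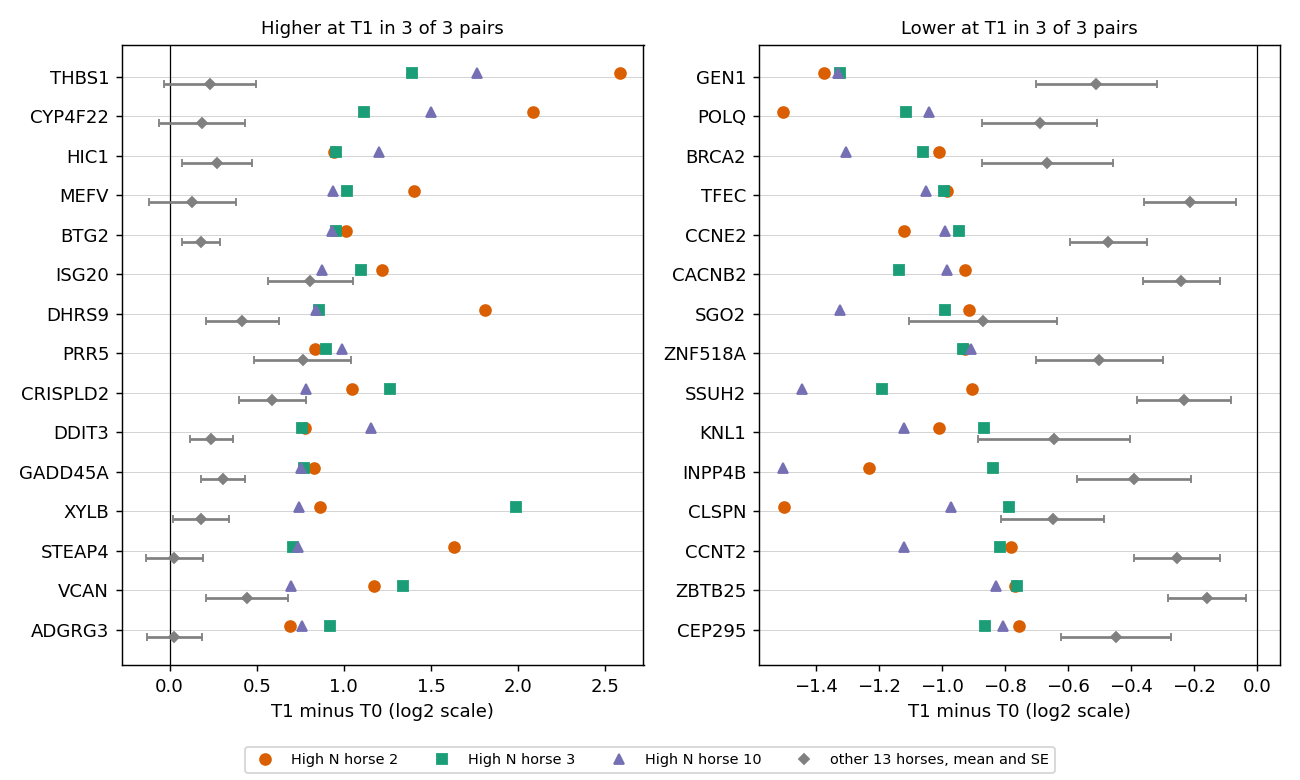
T1 minus T0 change (log2 scale) of the 15 genes higher (left) and the 15 lower (right) at T1 in each pair whose smallest pair change was largest. Coloured symbols are the 3 High N pairs and grey diamonds the mean of the other 13 horses with its SE. The High N values were used to choose the genes, whereas the other horses were not. GEN1 and ZNF518A had the 3 pairs closest together.

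The other 13 horses played no part in choosing these genes, so their values are an independent reading of the same contrast. Of the 1470 genes higher in 3 of 3 High N pairs, 86.9% were higher on average in the other horses, against 45.3% of all tested genes. Of the 1987 lower genes, 92.6% were lower on average in the other horses, against 54.7% of all tested genes. These shares are descriptions over genes, which are not independent, and all libraries share 1 normalization. Of the 30 genes plotted for their smallest pair change, none passed the test in the other horses (limma, adjusted p from 0.111 to 0.949). The nearest were CCNE2, lower in 12 of 13, and CLSPN and POLQ, each lower in 11 of 13.

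Read the other way, 8 genes passed in the other 13 horses (0.0545% of those tested), 7 higher and 1 lower at T1, while 2971 had an unadjusted p under 0.05. With the ciliated covariate the count was 436, these 8 among them. All 7 higher genes were also higher in 3 of 3 High N pairs. PCOLCE2 changed by 0.85 ± 0.34 in the High N horses, against 1.33 ± 0.16 in the others. For CCL17 the values were 1.03 ± 0.42 in the High N horses and 1.29 ± 0.20 in the others. ADM changed by 1.27 ± 0.31 in the High N horses, against 0.94 ± 0.15 in the others, RPS28 by 0.74 ± 0.28 against 0.79 ± 0.13, and HSPA6 by 1.0 ± 0.30 against 0.81 ± 0.14 (SE of the fit, 3 and 13 pairs). The remaining 2 higher genes and the lower one had no symbol in the deposited table, and the lower one was lower in horses 3 and 10 but not in horse 2. For these 8 genes the change differed between High N and the other horses by less than 2 of its SE.

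Whether training acted otherwise in the High N horses was asked with the difference of the 2 changes. No gene passed (limma, 0 of 14692, 0% called; 176 genes with an unadjusted p under 0.05; smallest adjusted p above 0.99). The smallest unadjusted p was that of ALDH1A2, an enzyme that makes retinoic acid, named here after its values were seen. It was 4.61, 5.39 and 4.90 at T1 in the High N horses, against 3.46, 3.69 and 3.59 at T0, a change of 1.39, whereas the other 13 horses averaged -0.18. SERPINE2 came next, at 8.74, 9.85 and 9.93 at T1 and 10.19, 10.58 and 10.87 at T0, with a change of -1.04, against 0.02 in the other horses.

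SAMHD1 followed, with a change of 1.14 ± 0.33 in the High N horses and -0.21 ± 0.16 in the others (SE of the fit; 3 and 13 pairs; difference 1.36 ± 0.37). Its difference did not pass with the 3 pairs. Without the pair of horse 2 it was 1.1 (limma, adjusted p = 0.744), without that of horse 10 it was 0.89 (adjusted p above 0.99), and without that of horse 3 it was 2.09 (adjusted p = 0.041). Horse 3 was the pair that ran the other way, so the last value follows from leaving it out and is no support for a difference, and even there the change in the High N horses did not pass (1.88, adjusted p = 0.064). BTG2 differed by 0.78 between the groups (0.96 in the High N horses, 0.18 in the others) and THBS1 by 1.68 (1.91 and 0.23). None of these differences passed the test over all genes. BTG2 and THBS1 were chosen for their High N changes, so their differences are not free of that choice.

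The study named 54 genes that were higher in High N than in the other horses at T1. That list was chosen on these same libraries, so its direction here is not independent evidence. Of the 54, 31 were higher and 0 lower in 3 of 3 pairs, beside 10% and 13.5% of all genes, and the median change was 0.84, against 0.21 in the other horses. The list mean changed by 1.32 in horse 2, 1.23 in horse 3 and 0.28 in horse 10. At T0 it was 8.87, 8.92 and 9.33, where the other horses had a median of 7.93 and a highest value of 8.99. Horse 10 was therefore above every other horse for this list at rest. ILT11B, a leukocyte immunoglobulin-like receptor, showed that pattern, with 11.46, 11.54 and 10.63 at T1 and 9.82, 9.33 and 10.43 at T0.

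With the mean of the neutrophil receptor genes that could be found (4 of 8) added as a covariate, 183 genes had an unadjusted p under 0.05 and 0 passed (limma). CSF3R and TREM1 are part of that covariate, so the fit lowers the changes of neutrophil genes by its construction. The part of neutrophil number in the changes of this list was not tested.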

How the data were processed

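Tracheal wash cells of 16 horses were sequenced at T0 and T1 (32 libraries). Per the labels, the authors trimmed reads with cutadapt and quantified them with kallisto 0.46.0.1 against EquCab3.0 transcripts. The authors deposited expression on a log2 scale that allows for library size and narrows at low expression, although the table bears the name of raw counts. Values are fractional and in part negative, and the transformation is not given in the sources used here. Every gene's 32 columns were used and 0 columns were left out. Of 21357 genes, 1899 had 1 value in every library and were dropped.

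Changes were fitted with limma 3.58.1 in R 4.3.3, with the mean-variance trend, on all 32 libraries, with the horse as a block and separate T1 minus T0 terms for High N and the other horses. p-values were adjusted by Benjamini-Hochberg over the 14692 genes with a mean of at least 3 in the 6 High N libraries. The block follows from the design, since both libraries come from 1 animal. The deviations of a horse's libraries from the group means correlated across genes between -0.504 and 0.785, above 0.1 in 12 of 16 horses. The High N horses were among the 4 others, with -0.504, -0.479 and 0.034 in horses 2, 3 and 10. Standard errors and p-values measure the spread between animals, pooled over all 16 horses, with 1 library per animal and time.

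Named genes were CSF3R, TREM1 and SAMHD1 and, each way, the 15 genes whose smallest pair change was largest (mean of at least 5). Up to 4 members of each of 31 lists with the smallest p were also named, as were the genes the study measured by qPCR. The members and lists were chosen with earlier results of these data known. High N follows the study's cytology. Counts over lists carry no set test. The fit was tested on simulated data. Alternatives were other filters, no block, a common median, no trend, robust variance, marker covariates, left-out horses and the 3 pairs alone.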

Additional observations from a re-analysis of the deposited data

How the results depend on the processing

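The count of genes called for the change in the High N horses stayed at 0 under 13 of 14 other settings, each High N pair left out in turn among them (range 0 to 0), and was 50 with the ciliated covariate. With that covariate the count in the other horses was 436, against 8 without it. Genes at an unadjusted p under 0.05 numbered 870 to 2331 with a pair left out, 2344 with the ciliated covariate and 183 with the neutrophil covariate. Within the ciliated covariate fit, leaving out a pair, an alternative chosen after seeing the data, gave 0 to 60. Without the replicate block the count was 0, with 730 genes at an unadjusted p under 0.05, so the pairing changed no call. For the difference between the groups the count was 0 to 1 when a High N pair was left out and 0 elsewhere. Genes moving the same way in 3 of 3 pairs numbered 224 with a change of at least 0.5 in each pair and 14 with at least 1. With libraries shifted to 1 median, 1121 were higher and 1740 lower, and the all-gene median change was 0.04.

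With the neutrophil covariate the change was -0.59 for CSF3R and -0.013 for TREM1, which are part of that covariate, -0.12 for VCAN, -0.073 for IL18RAP, -0.72 for CD79A and -0.21 for MT-CO3, opposite in sign to the values above. Leaving out each pair in turn gave -0.81 to 2.16 for CD79A, -2.34 to 0.48 for DNAH5, -0.061 to 1.38 for HMOX1, -0.81 to 0.12 and -0.87 to 0.33 for the 2 entries of IL7R and -0.017 to 0.89 for MT-CO3. Of the 98 or 99 named genes, the change shrank by more than 1.5 times in 53 with the neutrophil covariate, 24 without horse 3, 16 without horse 2 and 4 without horse 10. List medians with a pair left out ran from 0.40 to 0.88 for neutrophil receptors, 0.12 to 0.71 for granule, -0.10 to 0.30 for cytokine, 0.13 to 0.62 for type I interferon-stimulated, 0.25 to 0.57 for MHC class I, -0.015 to 0.33 for NRF2, 0.12 to 0.62 for ribosomal and 0.62 to 1.14 for the 54 study genes, each lowest without horse 3, and from -0.76 to 0.04 for proliferation genes, highest without horse 2. The causes were not tested. With 3 pairs the median SE of a change was 0.32, against 0.15 in the other 13 horses, and depth cannot be judged from these values.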
